A study of Strongylocentrotus purpuratus with 8 samples.

Results

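Mitochondrial respiration passes electrons from NADH and succinate through the protein complexes of the inner membrane to oxygen, and ATP synthase uses the proton gradient they build to make ATP. The proteins of these complexes, the mitochondrial ribosome that translates the organelle's own mRNAs, and the carriers and proteases of the organelle are mostly encoded in the nucleus. In sea urchin embryos the egg supplies mitochondria and stored mRNAs, so the mRNAs read here may be maternal or made by the embryo.

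The genes described here were the targets of one array whose names match respiratory chain, ATP synthase, ubiquinone, prohibitin, ADP/ATP carrier, mitochondrial ribosome or other mitochondrial words, leaving out names with P450, heat shock or glutathione. The rule used names only and found 182 members among 6414 targets, of which 169 were bright enough to be tested and 13 were not. The dim ones were 2 NADH dehydrogenase, 1 ubiquinol-cytochrome c reductase, 1 cytochrome c oxidase and 2 mitochondrial ribosome targets, 1 prohibitin, 1 ADP/ATP carrier and 5 other mitochondrial targets. Of the 182 names, 171 are cut short on the array, so members are called here by the array's own truncated names, and only 11 names are whole. For 8 members the name points to a protein outside the respiratory chain, namely vacuolar ATP synthases, NADH oxidases and cytochromes b5, b558 and b245. No sequences are printed, because the array's identifiers were not matched to a sequence table.

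The study asked what changes in RNA follow knockdown of SpRunt-1, a Runx transcription factor, in embryos of the purple sea urchin Strongylocentrotus purpuratus. The SpRunt-1 morphants were grown from fertilized eggs that had received a morpholino antisense oligonucleotide (MASO) blocking a splice site of SpRunt-1, and the control was RNA of untreated embryos with no injection, so injection and knockdown cannot be told apart. Both were hatched blastulae of outbred wild animals at 18 h after fertilization, grown at 15 °C in filtered sea water. There were 4 morphant cultures, each from its own mating pair, with about 3600 embryos and 5 µg of RNA per culture, and a single control pool of about 14400 embryos and 20 µg of RNA drawn from the same 4 experiments. Each culture was hybridised on 2 two-colour arrays with the dyes swapped, giving 8 arrays on 1 slide. Values below are log2 ratios of morphant over control, averaged over the swap, so that n = 4 cultures. Because the control is 1 pool, the test against 0 leaves out the control's own spread.

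All 8 arrays were usable. The Cy3 median signal ran between 66.4 and 86.6 over the arrays, and the Cy5 median between 59.9 and 95.5. Of the 6 targets named for hatching enzyme or the blastula protease SPAN, 5 were well above background in both RNAs on all arrays; both are known products of the blastula. The SpRunt-1 target itself (array name Sp-Runt) had log2 ratios of -0.21, -0.54, -0.04 and 0.09 in cultures 1 to 4, with a mean of -0.18 ± 0.27 (SD, n = 4; limma adjusted p = 0.345). The probe's place relative to the blocked splice site is not known here, so this value does not check the knockdown. A whole embryo was measured, so fewer cells of a type and less RNA per cell cannot be told apart for any gene below. Some targets of the stage and territory marker lists passed at a limma adjusted p under 0.05, as did 5.00% of all targets. Of the 6 hatching targets 1 was higher (BlasTig2997 SPAN, 2.01), and their means ran from -0.10 to 2.01. Of 2 early histone targets 1 was higher (Tig403 Histone H1, 2.88), while Tig146 Histone H1, at -0.80, did not pass. Of 20 arylsulfatase targets tested, 1 was lower (P50430 ARYLSULFATASE B, -1.51). Arylsulfatase was listed as a marker of the aboral ectoderm, but the names do not show which of these targets are specific to it. The arylsulfatase means lay on both sides of 0, from -1.51 to 0.44. None of the 5 skeletogenic, pigment and endoderm targets passed, with ratios from -1.38 to 0.88. The part of stage or cell makeup in the mitochondrial values was not tested.

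Relative to other targets of like brightness, the mitochondrial genes as a group were centred near the control. The median log2 ratio of the 169 members was 0.00, against -0.02 over all 5481 targets tested, with 88 member means above 0 and 81 below. That level rests on the loess curve: with arrays only centred on their median, the member median was 0.29, against 0.10 over all targets. In limma's test with Benjamini-Hochberg adjustment over all targets, 8 members passed, 4 higher and 4 lower in morphants, which is 4.73% of the members beside 5.00% of all targets. By direction, 2.37% of members were higher beside 2.96% of all targets, and 2.37% were lower beside 2.04%. At an unadjusted p under 0.05 there were 53 members, 25 higher and 28 lower, or 31.4% beside 35.3%. Members above 0 in all 4 cultures numbered 35, or 20.7% beside 20.9%, and members below 0 in all 4 numbered 33, or 19.5% beside 23.4%. Each share of members lay near that of the whole array. The split between directions depends on the scaling, for members and for the whole array. With Agilent's own log ratio 16 members were higher and 3 lower, beside 535 and 304 of all targets. In the authors' deposited values 10 were higher and 5 lower, beside 329 and 252, and with median centring 2 were higher and 0 lower, beside 49 and 7. In the fit used here the array's split was 162 higher and 112 lower.

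**Figure D1:**
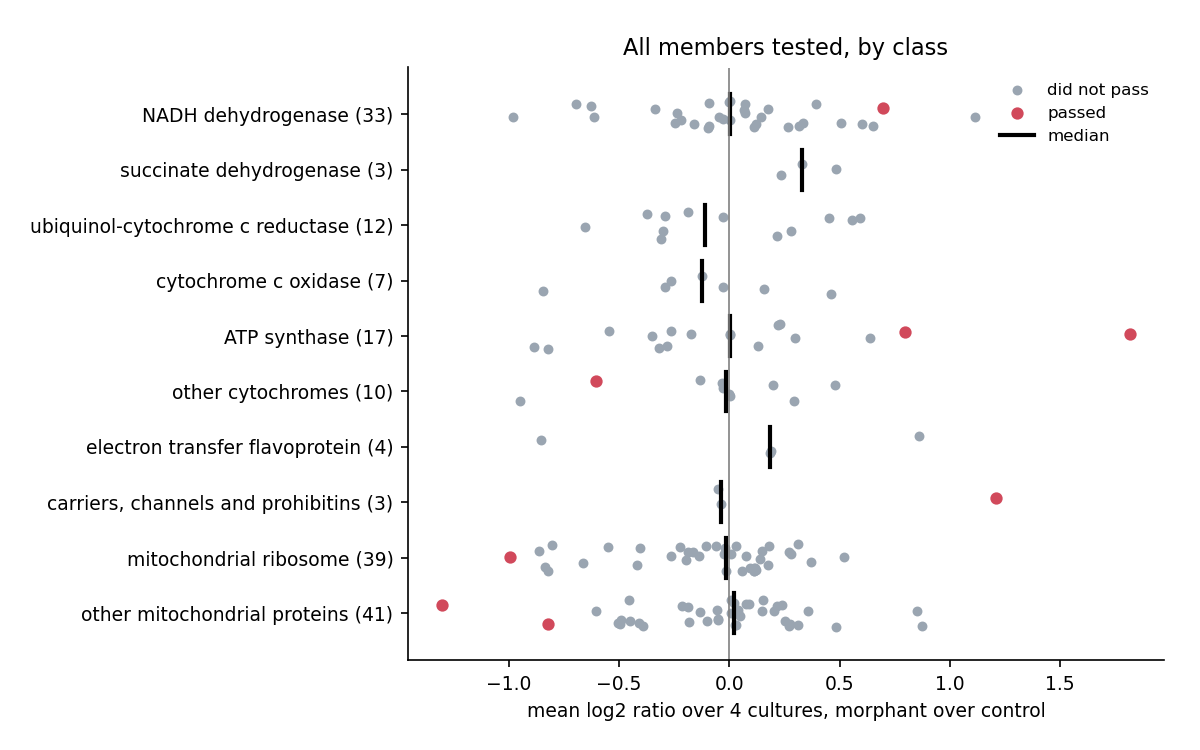
Mean log2 ratio of morphant over control for each of the 169 members tested (points, averaged over 4 cultures), in rows by class with the number tested in brackets; black bars are class medians. The 8 members that passed the test (red) lie in 6 classes, and 9 of the 10 class medians lie between -0.12 and 0.19; the median of the 3 succinate dehydrogenase targets is 0.33.

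The first complex of the chain, NADH dehydrogenase, takes electrons from NADH and was represented by 33 tested targets, 2 of them NADH oxidases by name. 1 rose and none fell, with a class median of 0.00 and means from -0.98 to 1.12. The one that rose was "17880 C09H10.3 NADH d", whose normalized intensity was 395, 437, 544 and 564 in the RNA of morphant cultures 1 to 4, against 299, 271, 285 and 330 for the control on the same arrays. Every morphant value lay above every control value, and culture 1 had the smallest ratio. Its log2 ratios were 0.40, 0.69, 0.93 and 0.77, with a mean of 0.70 ± 0.22 (SD, n = 4), a 1.62-fold higher level, and a limma adjusted p of 0.0458. Its other probe gave 0.68.

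Other NADH dehydrogenase targets lay at both ends without passing. "AN P49821 NADH UBIQUINONE" had even ratios of 0.34, 0.41, 0.29 and 0.29 and just missed the threshold (mean 0.33 ± 0.06, limma adjusted p = 0.0533). It was dim, with control intensities of 71.9 to 82.3 and 6 of 8 control arrays above background. Its size depends on the background step, at 0.58 with a normexp offset of 16 and 1.11 with Agilent's log ratio, and it passed in 5 of 16 other settings. "Tig8 NADH-ubiquinone oxid" had the highest mean of the class, 1.12 ± 1.33 (SD, n = 4), but its cultures went different ways, with ratios of 0.93, 2.58, -0.60 and 1.56. Its morphant intensities were 631, 2652, 258 and 1010, against 331, 445, 392 and 343 in the control. The control readings of this target, all of the same pooled RNA, were close together and the morphant cultures spread on both sides of them. Its other probe gave 1.34, and its limma adjusted p was 0.205. On the low side, "06329 NADH UBIQUINONE" had ratios of -0.33, -1.69, -0.97 and -0.94 (mean -0.98 ± 0.55, limma adjusted p = 0.0692). "IN P34943 NADH UBIQUINONE" averaged -0.63 ± 0.29, "AN O95139 NADH UBIQUINONE" averaged -0.61 ± 0.34 and "IN Q02372 NADH UBIQUINONE" averaged -0.69 ± 0.38 (SD, n = 4 each). These 4 low targets were below 0 in every culture, although none passed. Of the 33 targets of the class, 8 were below 0 in all 4 cultures and 6 above. Over all targets those shares were 23.4% and 20.9%.

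1 NADH dehydrogenase target was measured in only one of the RNAs. "9VZU4 CG12079 NADH dehydr" was well above background on 4 morphant arrays and not well above background on any control array, so the control has only a bound. The mean morphant level was at least 1.39-fold higher than that bound (limma adjusted p = 0.289). Its ratios of 0.35, 0.08, 1.62 and -0.01 place the excess almost wholly in culture 3. Here and below, "at least" compares the mean of the brighter RNA with the higher of the dim reading and the weakest signal called above background on that array. The same was so for 3 dim members elsewhere in the list, "Mes gi 39S ribosomal prot", "Mes gi Mitochondrial fola" and "P97615 MITOCHONDRIAL". Each was well above background on 5 morphant arrays and 0 control arrays, with bounds of 1.08-, 1.14- and 1.05-fold. The morphant means here include arrays not well above background, so "at least" is approximate and these values lie near the floor.

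Succinate dehydrogenase, which belongs to both the citric acid cycle and the respiratory chain, had 3 targets, and none passed. Their means were 0.23, 0.33 and 0.48, but the direction depended on the probe for 2 of the 3. "9YHT2 SUCCINATE DEHYDROGE" had morphant intensities of 1107, 3030, 1424 and 880, against 1059, 1043, 964 and 1037 in the control. Culture 2 stood well above the control, culture 3 was moderately above it, and cultures 1 and 4 lay near it. Its ratios were 0.06, 1.54, 0.56 and -0.24, its mean was 0.48 ± 0.78 (SD, n = 4), and its limma adjusted p was 0.322. Its other probe had the opposite sign, at -0.90, and the mean of both probes was -0.21. "AN Q99643 SUCCINATE DEHYD" had ratios of 0.00, 0.29, 0.90 and 0.14, so culture 3 led there (limma adjusted p = 0.223). The second probe gave -0.08 and the mean of both was 0.13.

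Ubiquinol-cytochrome c reductase hands electrons from ubiquinol to cytochrome c. The 12 tested targets of this class include a b-type cytochrome that lies outside the respiratory chain by name, with a mean of 0.28. None of the 12 passed, with a class median of -0.11 and means from -0.65 to 0.59. "BlasTig2611 Ubiquinol-cyt" came nearest, with morphant intensities of 19376, 23065, 22632 and 27390, against 15596, 17693, 16416 and 17438 in the control. All 4 morphant readings exceeded all control readings. Its mean ratio was 0.45 ± 0.15 (SD, n = 4; limma adjusted p = 0.0527), and its other probe gave 0.54. "N P08574 CYTOCHROME C1 HE", named for the heme protein of this complex, had ratios of -1.01, -0.49, -1.08 and -0.04 (mean -0.65 ± 0.49, limma adjusted p = 0.109). Cultures 1 and 3 were low there and culture 4 was at the control's level.

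4 targets carry the name of cytochrome b, the subunit encoded by the mitochondrial genome, and they did not share a direction. Whether they come from 1 gene was not checked here, and the same holds for other targets of like name. "48246 CYTOCHROME B" averaged -0.31 ± 0.18, "48239 CYTOCHROME B" averaged -0.29 ± 0.35, "Mes gi Cytochrome b - Str" averaged -0.03 ± 0.04 and "03190 CYTOCHROME B" averaged 0.56 ± 0.59 (SD, n = 4 each). The last had a ratio of 1.33 in culture 2 and -0.10 in culture 1.

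Cytochrome c oxidase, which passes electrons to oxygen, had 7 tested targets and none passed. The class median was -0.12 and 5 of the 7 means were below 0. "63543 CYTOCHROME C OX" had the lowest mean and the clearest split between cultures. Its morphant intensities were 341, 112, 157 and 162, against 335, 306, 328 and 302 in the control. Culture 1 matched the control while cultures 2, 3 and 4 read well below it. The ratios were 0.03, -1.45, -1.06 and -0.90, with a mean of -0.84 ± 0.63 (SD, n = 4; limma adjusted p = 0.105). At the other end, "MY O13085 CYTOCHROME C OX" averaged 0.46 ± 0.57, with cultures 3 and 4 near 0.90 and 0.99 and cultures 1 and 2 at 0.06 and -0.11.

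ATP synthase held both the largest rise among all members and some of the lowest means. Of 17 tested targets 2 rose and none fell, and the class median was 0.00 with means from -0.88 to 1.82. "PU Q25117 ATP SYNTHASE BE" had morphant intensities of 1330, 1230, 1333 and 1112, against 307, 432, 364 and 328 in the control. The groups were far apart, and all cultures agreed in direction and nearly in size. Its log2 ratios were 2.12, 1.51, 1.87 and 1.76, with a mean of 1.82 ± 0.25 (SD, n = 4), which is 3.52-fold higher, and a limma adjusted p of 0.0253. The size depends on the probe: the other probe of the same target gave 0.62, 0.15, 0.18 and 0.43, a mean of 0.35, and the mean of both probes was 1.08. Both probes were above 0 in every culture.

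"Mes gi ATP synthase gamma", named for the rotating central shaft of the enzyme, had morphant intensities of 371, 531, 523 and 539, against 281, 280, 270 and 289 in the control. Cultures 2, 3 and 4 nearly coincided and culture 1 lay clearly nearer to the control. The ratios were 0.40, 0.92, 0.96 and 0.90, with a mean of 0.79 ± 0.26 (SD, n = 4), 1.73-fold higher, and a limma adjusted p of 0.0458. Its other probe gave almost the same values, 0.45, 0.92, 0.89 and 0.86.

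The lowest ATP synthase means did not pass. "AN P18859 ATP SYNTHAS" had ratios of -0.10, -1.70, -1.08 and -0.65, and "GA Q07233 ATP SYNTHAS" had -0.51, -1.61, -0.57 and -0.60, with limma adjusted p of 0.111 and 0.0847. Both were lowest in culture 2 and below 0 in all cultures. "AN O75947 ATP SYNTHASE D", with 0.39, -1.07, -0.88 and -0.61, had culture 1 on the opposite side from the rest. Its mean was -0.54, while its other probe gave 0.21. "CA Q37385 ATP SYNTHAS" averaged 0.64 ± 0.40 but its other probe gave 0.04. The 2 vacuolar ATP synthase targets, which belong to a proton pump of other membranes, averaged 0.22 and 0.23. Without them, 7 of the 15 ATP synthase means lay above 0 and 8 below, with a median of -0.17.

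**Figure D2:**
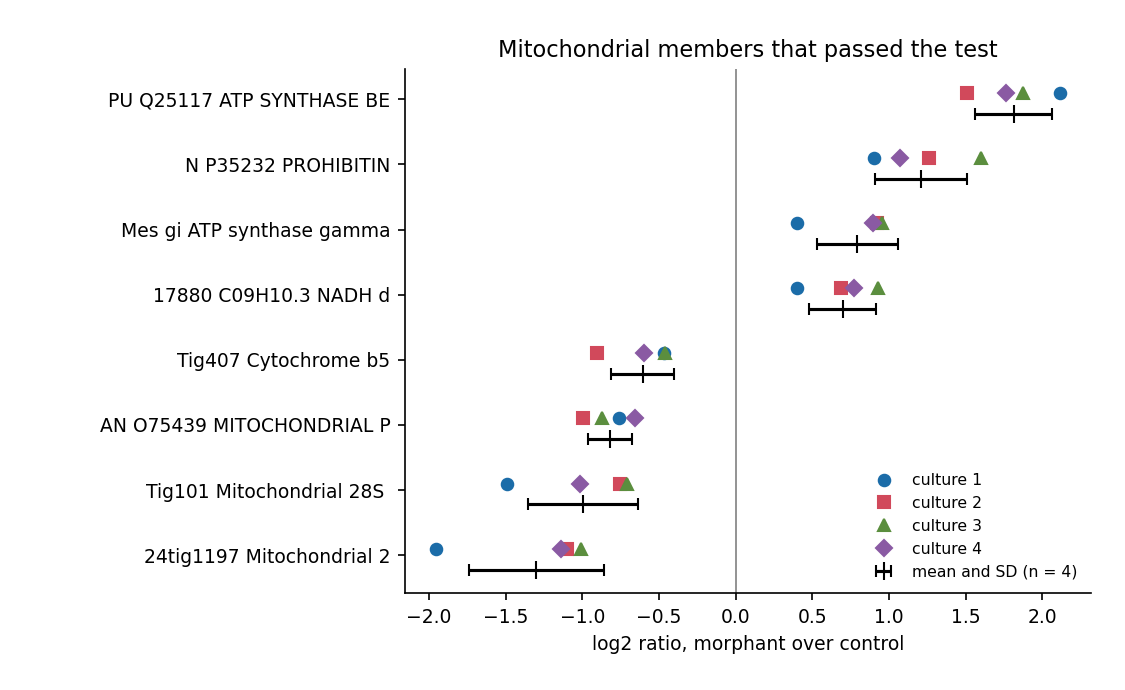
Log2 ratio of morphant over control (horizontal axis) in each of the 4 cultures for the 8 members that passed the test, with the mean and SD (n = 4) below the points. No culture of any of the 8 crosses 0, and culture 1 is the lowest point for 5 of them, the highest for PU Q25117 ATP SYNTHASE BE.

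Among the smaller electron carriers, "Tig407 Cytochrome b5" fell. Cytochrome b5 is a heme protein best known from the endoplasmic reticulum and outer mitochondrial membrane and is not a part of the respiratory chain. Its morphant intensities were 6248, 4153, 4665 and 4494, against 8625, 7760, 6416 and 6803 in the control. The ranges approached each other, since morphant culture 1 lay just below the lowest control reading. The ratios were -0.47, -0.90, -0.46 and -0.60, with a mean of -0.61 ± 0.21 (SD, n = 4) and a limma adjusted p of 0.0484, the nearest to the threshold of the 8. The other probe gave 0.11, -0.67, -0.49 and -0.16, with a mean of -0.30. This call was the least stable of the 8. It passed in 6 of 17 other settings, while the others that passed did so in 10 to 13. It was lost when all 8 arrays entered with culture as a block (limma adjusted p = 0.154). Each dye orientation alone also lost it (-0.84 with the morphant in Cy5, -0.37 in Cy3). With median centring (-0.08) it did not pass, nor did any other member that fell.

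The remaining cytochrome targets did not pass. The 3 with cytochrome c as the whole of their description averaged -0.03, -0.03 and 0.20, and the last, "P P00049 CYTOCHROME C", ran from -0.78 in culture 3 to 1.23 in culture 2. "BlasTig3099 Cytochrome c", whose name is cut and may continue, had morphant intensities of 1539, 1800, 2472 and 3219, against 3839, 4651, 4488 and 3818 in the control. All morphant readings were below all control readings, with culture 4 closest. Its mean was -0.95 ± 0.52 (SD, n = 4; limma adjusted p = 0.0665) and its other probe gave -1.05.

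Electron transfer flavoproteins bring electrons from fatty acid oxidation to ubiquinone. None of their 4 targets passed, and 2 of them lay at opposite ends. "P13803 ELECTRON TRANSFER" had morphant intensities of 361, 770, 537 and 525, against 274, 338, 303 and 258 in the control. Each morphant reading was higher than all the control readings, and culture 1 was the lowest of the 4. Its mean ratio was 0.86 ± 0.34 (SD, n = 4; limma adjusted p = 0.0513), with 0.74 from its other probe. "AN P38117 ELECTRON TRANSF" had ratios of 0.03, -1.61, -0.79 and -1.05, so that cultures 2, 3 and 4 were low and culture 1 was at the control's level (mean -0.86 ± 0.68, limma adjusted p = 0.116).

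Prohibitins form ring-like scaffolds in the inner membrane and assist assembly of the respiratory complexes. "N P35232 PROHIBITIN" rose, with morphant intensities of 305, 465, 550 and 346, against 163, 194, 181 and 164 in the control. Every culture stood clear of the control, culture 3 the most. The ratios were 0.90, 1.26, 1.60 and 1.07, with a mean of 1.21 ± 0.30 (SD, n = 4), 2.31-fold higher, and a limma adjusted p of 0.0282. Its other probe gave 0.56, 1.02, 1.34 and 1.04, in the same order of cultures except that 2 and 4 were nearly equal. A second prohibitin target, "ME P24156 Prohibitin", was too dim to test, as was 1 of 3 ADP/ATP carrier targets. The 2 carrier members that were tested, which exchange ADP for ATP across the inner membrane, averaged -0.05 and -0.04, with all their culture ratios between -0.21 and 0.08. A further target, "Mes gi DP/ATP translocase", escapes the name rule by a missing letter. Its ratios were -0.17, -0.36, -0.38 and -0.73 (limma adjusted p = 0.0855), but it was saturated on 4 of 8 arrays in morphant RNA, and its other probe gave 0.08.

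**Figure D3:**
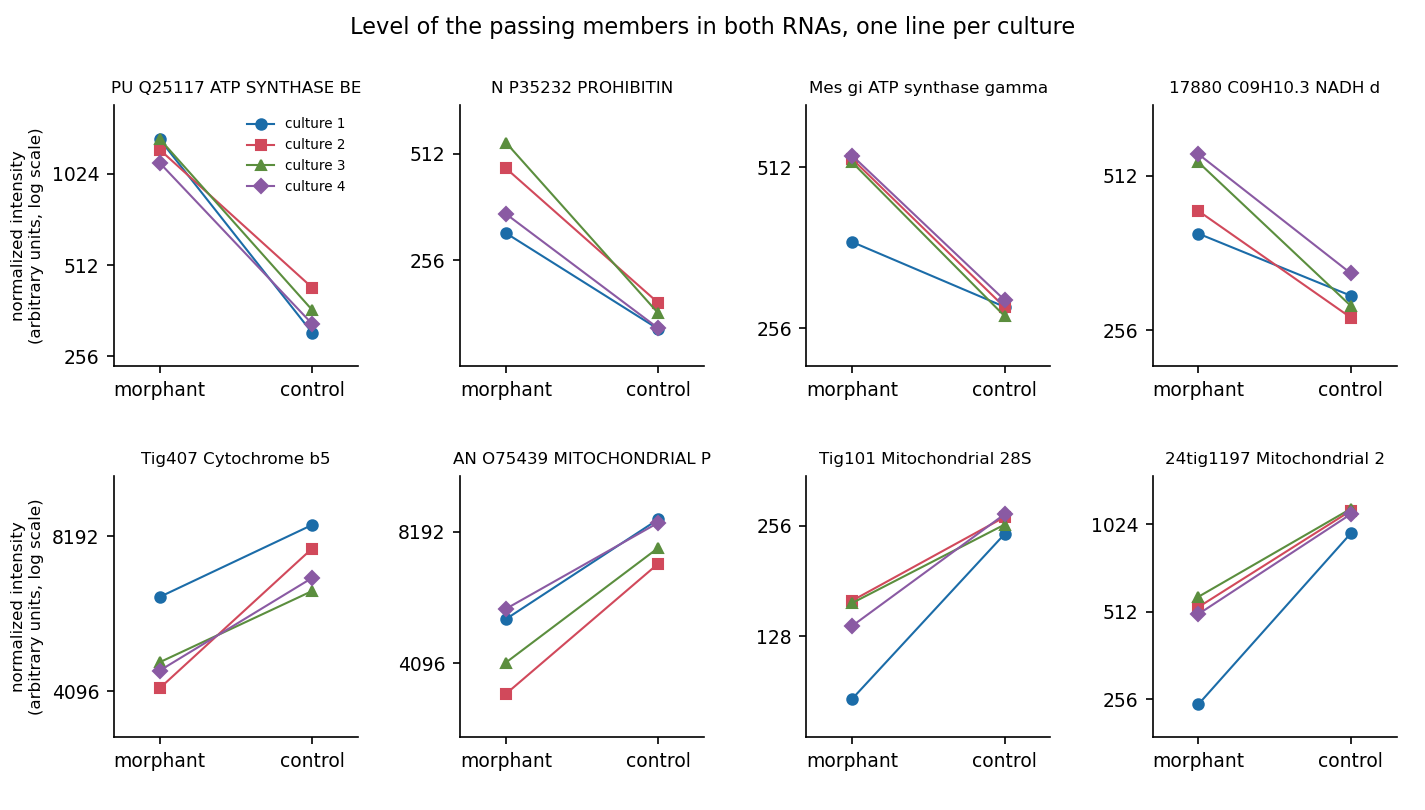
Normalized intensity (log scale, arbitrary units; the scale differs between panels, and levels are not compared between probes) of the 8 members that passed, in morphant RNA (left) and in the control pool on the same arrays (right), one line per culture. All lines of a panel run the same way. Control points differ only by array, since all are the same RNA.

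Mitochondrial ribosomal proteins build the small (28S) and large (39S) subunits of the organelle's ribosome and were the largest named class, with 39 tested targets. By the names as printed, 1 fell and none rose, the class median was -0.01, and 19 means lay above 0 and 20 below. Names cut before the subunit could be read are among the remaining targets below. "Tig101 Mitochondrial 28S" had morphant intensities of 86.3, 160, 158 and 136, against 243, 270, 258 and 275 in the control. All morphant cultures lay below the control, culture 1 by the most. The ratios were -1.49, -0.76, -0.71 and -1.01, with a mean of -0.99 ± 0.36 (SD, n = 4), a level 0.502 times that of the control, and a limma adjusted p of 0.0458. For this target the size depends on the background step, at -1.27 with a normexp offset of 16 and -1.68 with Agilent's log ratio. With the morphant in Cy3 only it did not pass (-0.80, limma adjusted p = 0.0583). Its other probe gave -0.34, -0.83, -0.86 and -0.72, where culture 1 was the least low instead of the most.

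The ribosomal class held several targets whose cultures disagreed by more than 4-fold. "9Y311 CGI 22 39S ribosoma" had ratios of 0.62, -1.93, -1.12 and -1.03, and "24tig2505 39S ribosomal p" had 0.74, -1.81, -1.10 and -1.04. In both, culture 1 was above the control and the others were well below it. Their second probes gave 0.30 and -0.01, and neither passed (limma adjusted p of 0.218 and 0.249). "39S ribosomal protein L35" had morphant intensities of 108, 158, 1230 and 514, against 244, 292, 327 and 284 in the control. Here cultures 1 and 2 were low and cultures 3 and 4 high. The mean of 0.18 ± 1.46 (SD, n = 4; limma adjusted p = 0.852) hides ratios of -1.17, -0.89, 1.91 and 0.86. Without culture 3 its mean was -0.40, and without culture 4 it was -0.05.

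Other ribosomal targets were more alike between cultures. "9W0S6 CG13880 39S ribosom" was below 0 in all 4 cultures, at -0.70, -1.44, -0.42 and -0.79 (limma adjusted p = 0.0617), while its other probe gave 0.33. "9VHC6 39S ribosomal prote" had the highest mean of the class, 0.52 ± 0.29 (SD, n = 4; limma adjusted p = 0.0741), with 0.52 from its other probe. The whole-named "28S ribosomal protein S9" averaged -0.26 ± 0.17, and "39S ribosomal protein L53" averaged -0.55 ± 0.56 with culture 1 above 0.

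The 41 remaining targets share only the word mitochondrial or ubiquinone in their names. 2 fell and none rose, and the median was 0.02. "24tig1197 Mitochondrial 2", whose name breaks off after the digit, had morphant intensities of 246, 531, 576 and 502, against 951, 1139, 1156 and 1108 in the control. The groups were far apart and culture 1 was the lowest. The ratios were -1.95, -1.10, -1.01 and -1.14, with a mean of -1.30 ± 0.44 (SD, n = 4), 0.406 times the control's level, and a limma adjusted p of 0.0433. Its other probe gave -1.79, -0.64, -1.37 and -0.79.

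"AN O75439 MITOCHONDRIAL P", also cut short, had morphant intensities of 5170, 3483, 4110 and 5458, against 8759, 6932, 7535 and 8603 in the control. No morphant reading reached the lowest control reading. Its ratios of -0.76, -0.99, -0.87 and -0.66 had the smallest spread of the 8 members that passed, with a mean of -0.82 ± 0.14 (SD, n = 4) and a limma adjusted p of 0.0255. The other probe gave -0.34, -0.57, -0.62 and -0.25. "P16036 MITOCHONDRIAL PHOS" was among the brightest members, with morphant intensities of 31772 to 43950 against 38027 to 64010 in the control, and was saturated on 4 of 8 arrays in morphant RNA and 1 of 8 in control RNA. Its log2 ratio is therefore not an exact value: the mean was -0.46 (limma adjusted p = 0.0501), but -0.15 with the morphant in Cy5, -0.76 with the morphant in Cy3 and -0.0026 with median centring.

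On the high side of these 41, "24hrgi 57944171 Mitochond" averaged 0.87 ± 0.45 with 1.15, 0.22, 0.91 and 1.21 in the cultures (limma adjusted p = 0.0617), but its other probe gave 0.10. "Mitochondrial import inne" averaged 0.85 ± 0.49, with 1.00 from its other probe (limma adjusted p = 0.0719). The 2 targets cut at MITOCHONDRIAL S, "AN P38646" and "SE P38647", averaged -0.19 and -0.06.

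Most members had 2 probes that could be compared. Across the 140 members with both probes kept, the 2 mean ratios correlated at r = 0.633, as a description across genes that share arrays, and 32 members, or 22.9%, had opposite signs. Over all 4082 such targets the values were 0.753 and 21.3%. All 8 members that passed had a second probe, and in all 8 it had the same sign as the first. Of all targets that passed, 250 had a second probe, and 235 of those shared the sign. Agreement in size was closest for ATP synthase gamma, 17880 C09H10.3 NADH d and 24tig1197 Mitochondrial 2, and poorest for PU Q25117 ATP SYNTHASE BE.

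**Figure D4:**
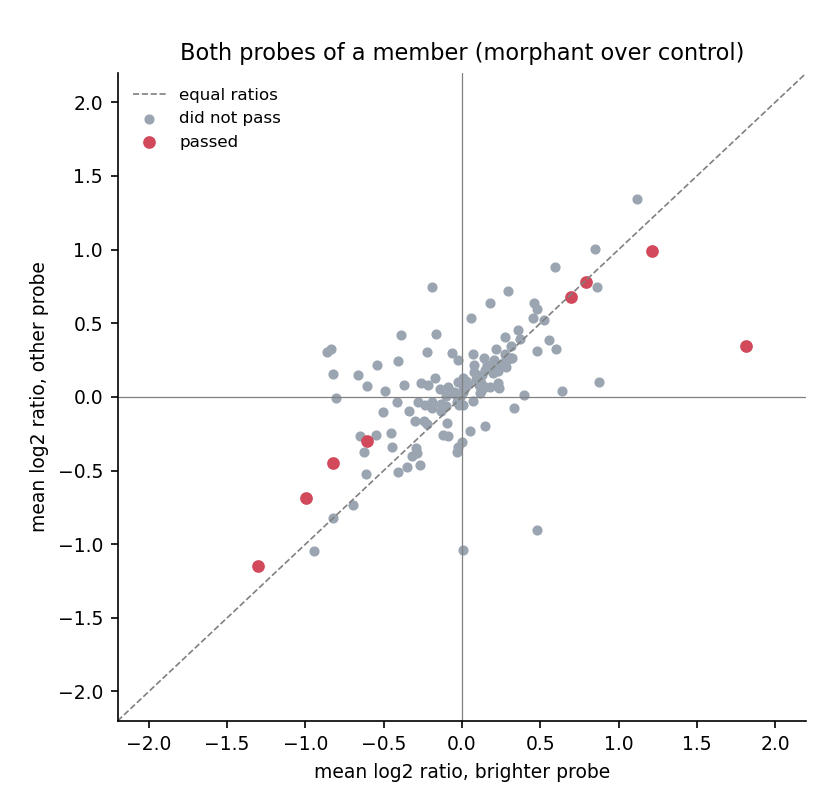
Mean log2 ratio of the brighter probe (horizontal) and of the other probe (vertical) for the 140 members with 2 kept probes. The 8 members that passed (red) lie at the upper right and lower left, where both probes share a sign; the red point at 1.82 on the horizontal axis, PU Q25117 ATP SYNTHASE BE, has 0.35 on the vertical one.

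The cultures differed from each other for most members. Each culture came from its own mating pair and was compared with the same pool. Differences between mating pairs and differences in response to injection or knockdown therefore cannot be told apart. In an F test over the 4 cultures on all 8 arrays, whose error is that between 2 arrays of the same RNA and which therefore compares these 4 RNA samples only, 114 members (67.5%) passed at an adjusted p under 0.05, beside 61.5% of all targets. The SD between cultures had a median of 0.29 over members and 0.24 over all targets. Across members, culture 1 correlated with the others at r = 0.246 to 0.299, while cultures 2, 3 and 4 correlated with each other at 0.451 to 0.645. These correlations are over 169 genes that share one control pool, so they are given as a description. Dye-swapped arrays of the same culture correlated at 0.889 to 0.961 over all targets.

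Culture 1 stood apart in sign for a subset of members. It was above 0 with cultures 2, 3 and 4 below 0 in 22 members, or 13.0% beside 12.3% of all targets, and below 0 with the others above in 13 members, or 7.69% beside 7.10%. Of the 22, 9 were mitochondrial ribosomal proteins, among them "9VCX3 CG6949 39S ribosoma" with 0.54, -1.30, -1.06 and -0.82. The mean of that target was -0.66, while its other probe had the opposite sign, at 0.15. Of the 13, 4 were mitochondrial ribosomal proteins and 3 belonged to ubiquinol-cytochrome c reductase, which also had 2 of the 22. The mitochondrial ribosome made up 39 of the 169 members tested, and the reductase class 12. Among the 3, "95341 UBIQUINOL CYTOC" had -0.04, 0.78, 0.80 and 0.83, with 0.88 from its other probe. The member shares of 13.0% and 7.69% lie near those of the whole array. With culture 1 left out, 24 members passed, 10 higher and 14 lower, including all 8 of the full test. That is 14.2% of members, beside 887 of all targets, or 16.2%. Without culture 2, 3 or 4 no member passed in limma's test, where 31, 33 and 34 members had an unadjusted p under 0.05. Over the whole array 1, 0 and 0 targets passed in those fits. In limma's fit with an intensity trend and robust variances no member and no other target passed, and 56 members had an unadjusted p under 0.05.

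**Figure D5:**
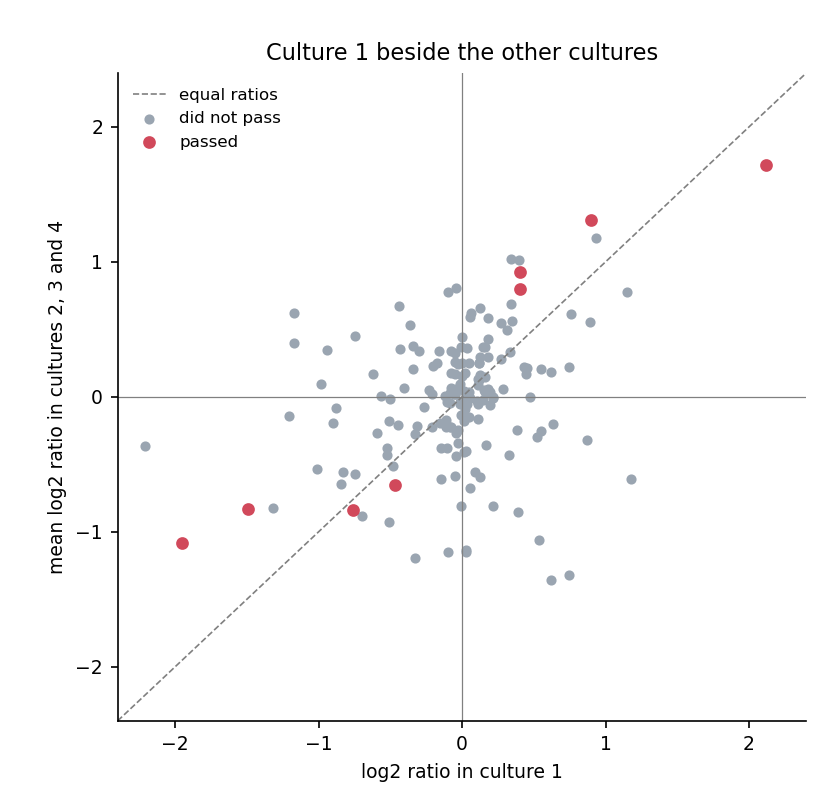
Log2 ratio of each of the 169 members in culture 1 (horizontal) and its mean over cultures 2, 3 and 4 (vertical), with the line of equal ratios dashed. Points at the lower right and upper left have opposite signs; the 8 members that passed (red) all lie where the signs are equal.

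The precision of 4 cultures limits what the members that did not pass can show. For 120 of the 169 members (71.0%) limma's 95% interval lay wholly within a 2-fold change in either direction, beside 75.0% of all targets. For 43 members that did not pass, the interval reached a 2-fold change or beyond, so a change of that size is not excluded for them. The same was so for 1185 of all 5481 targets. 4 members had a mean beyond 2-fold: PU Q25117 ATP SYNTHASE BE, N P35232 PROHIBITIN, 24tig1197 Mitochondrial 2 and Tig8 NADH-ubiquinone oxid, the last without passing. Over all 5481 targets 301 had a mean of that size.

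In 4 neighbouring pathway lists of targets outside the members, 1 of 57 tested targets passed, or 1.75% beside 5.00% of all targets. None of the 28 tested targets of the citric acid cycle and pyruvate oxidation passed, with a median of -0.05. "IN P20004 ACONITATE HYDRA" came closest, with a mean of -0.85 ± 0.36 (SD, n = 4) and a limma adjusted p of 0.0539, and "ME Q9Z2K9 ISOCITRATE DEHY" averaged 0.38 ± 0.16. Of 8 glycolysis targets 1 fell, "Tig303 Phosphoglycerate k", with ratios of -0.35, -0.41, -0.53 and -0.42 and a mean of -0.43 ± 0.07 (limma adjusted p = 0.0458). The other probe of that target gave -0.11. None of 19 fatty acid oxidation targets (median 0.07) and neither of 2 further mitochondrial import targets (-0.64 and -0.17) passed. These counts leave out ketohexokinase, transaldolase and the DP/ATP translocase, which the word patterns also matched and which did not pass.

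Brightness bears on the members' overall level. The median log2 intensity was 7.40 for members and 6.95 for all targets, and 59.8% of the members were brighter than the median target. A loess ratio is relative to other targets of similar brightness. When arrays were only centred on their median, the member median became 0.29 and 121 of 169 means lay above 0, while the median of all targets became 0.10 and 61.7% of all means lay above 0. Relative to that shift of all targets, the members still lay higher under median centring. The size of the members' overall shift thus depends on the scaling, from almost none with loess, and no direction is given to it here.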

How the data were processed

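Amplification and labelling of column-purified total RNA started from oligo dT, per the labels' protocols. Scanner output came from Agilent Feature Extraction 10.7.1.1 (named in the submitters' processing notes). Its columns are, per the file headers, a mean signal intensity and a background intensity for each spot and channel, the log10 ratio of Cy5 over Cy3, and flags that mark outlier, saturated and above-background spots. The authors' deposited value table gives log2 ratios per spot, already morphant over control (r = 0.968 to 0.988 with the ratios used here; column medians 0.000503 to 0.0248). Its making is not given in the sources used here.

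R 4.3.3 was used with limma 3.58.1, reading files with data.table in version 1.17.8. Background was corrected with normexp (offset 50), then loess was fitted within arrays, giving no weight to the 536 control spots. Outlier spots (0 to 32 per array) were left out, ratios were turned to morphant over control, and each culture's dye swap was averaged. A probe needed a signal well above background in either channel on 4 or more arrays (9563 of 12696 did; 309 of 364 member probes), and the brightest probe stood for its target. Means were tested against 0 with lmFit and eBayes over 5481 targets, with Benjamini-Hochberg adjustment and a threshold of 0.05. Intensities per RNA are loess values after Aquantile scaling, in arbitrary units. Cultures were compared by F test, with dye as a term. All arrays lay on 1 slide, so slide was no batch. The members and lists were chosen with earlier results of these data known. Members were named if they passed, were among the 12 smallest p-values, led their class by p or size, or were among the 4 with the widest range between cultures or between probes; in the other pathway lists the rule took the 2 smallest p-values, and further members were named after their values were seen. The marker patterns were narrowed after they matched unrelated names, and no target matched the egg yolk or sperm patterns. The scripts were tested on simulated data. The number of arrays limits precision, and p-values measure the spread between the 4 cultures only.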

Additional observations from a re-analysis of the deposited data

Results flagged for a closer look

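In 3 of the 22 members named by rule, 1 culture lay far from the other 3, by Dixon's gap test for 4 values. For P16036 MITOCHONDRIAL PHOS it was culture 2, at -0.259, while the others were between -0.54 and -0.49. This probe was saturated on 4 of 8 arrays in morphant RNA and its ratio was -0.15 with the morphant in Cy5 and -0.76 in Cy3, so differences between cultures are not exact there. For 24tig1197 Mitochondrial 2 it was culture 1, at -1.95, while the others were between -1.14 and -1.01. For Mes gi ATP synthase gamma it was again culture 1, at 0.403, while the others were between 0.90 and 0.96. The gap made up 0.831, 0.856 and 0.895 of the range in these members, above the 95% critical value. Over all 169 members tested, 15 met the same criterion, or 8.88%, beside 6.35% of all 5480 targets with a value in every culture. Chance marks about 5% of groups. The distant culture was culture 1 in 8 of them, culture 2 in 5, culture 3 in 1 and culture 4 in 1.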

How the results depend on the processing

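Of the 8 members that passed, all 8 also passed without background correction (9 members), with a normexp offset of 16 (12 members), when probes had to be above background in both channels on all arrays (11 members) and on the authors' deposited values (15 members). Of the 8, 7 passed with culture as a random block and with the mean of the probes (8 members), and 6 with Agilent's log ratio, with the morphant in Cy5 only (6 members) and in Cy3 only (9 members). Agilent's log ratio gave 19 members and 839 targets, the authors' values 581 targets, the offset of 16 gave 591 targets and the strict brightness filter 448. With all kept probes tested separately 14 member probes and 509 probes passed. A threshold of 0.10 gave 33 members and 1224 targets. Fitting all 8 arrays with culture as a random block gave 37 members and 1444 targets. Fewer passed with median centring in place of loess (2 members, 56 targets), with no brightness filter (3 members, 180 targets) and with an intensity trend and robust variances (0 members and 0 targets in limma, with 56 members and 2045 targets at an unadjusted p under 0.05). Of the 8, only 1 passed with median centring and 3 with no brightness filter. Leaving out 1 culture at a time gave 0 to 24 members and 0 to 887 targets, the high counts without culture 1 and the low ones without each of the other cultures; without those, 1213 to 1346 targets had an unadjusted p under 0.05. Without the 8 members outside the chain by name, an alternative chosen after seeing the data, 7 members passed. The member median was 0.288 with median centring, -0.0514 with the strict filter and 0.0406 over all probes, and -0.0035 to 0.0198 with 1 culture left out. 39S ribosomal protein L35 turned to -0.0520 with Agilent's log ratio and ranged from -0.40 to 0.63 with 1 culture left out, below 0 without culture 3 or 4 (-0.05), and 9YHT2 SUCCINATE DEHYDROGE to -0.21 with the mean of its probes; the other 20 members named by rule kept their sign in all settings tried. The cause of these differences was not tested. No paired analysis was possible because the control is 1 pool and has no replicate numbers. Members near background have compressed ratios, since the offset shrinks them.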
